A study of Mus musculus with 16 samples.

Results

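The 10 genes described here carry out antigen presentation on MHC class I in the mouse: the heavy chains H2-D1 and H2-K1, their light chain B2m, the peptide transporter subunits Tap1 and Tap2, tapasin (Tapbp), the immunoproteasome subunits Psmb8 and Psmb9, the transactivator Nlrc5 and the peptide trimming enzyme Erap1. They were taken by symbol, and all 10 were found among the 46078 genes of the count table and passed the filter on low counts that left 15096 genes to test. RNA was sequenced from demyelinated lesions of the spinal cord of C57BL/6 mice aged 8 to 12 weeks. Every mouse had received lysolecithin, a lipid that strips myelin from axons, and the lesion was cut from frozen cord by laser microdissection. The 16 libraries fall into 4 groups of 4: mice with an unrestricted running wheel (exercise) or the same cage with a locked wheel (control), at day 10 or at day 5. The labels do not say what the days are counted from, nor that each library came from a separate mouse, so p-values measure the spread between libraries. There was no uninjured cord among these groups, so levels are given only between lesions.

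MHC class I molecules show short peptides from a cell's own proteins at its surface, where CD8 T cells and natural killer cells read them. Proteasomes cut the proteins, and the immunoproteasome does so with the subunits Psmb8 and Psmb9 in place of Psmb5 and Psmb6. The TAP transporter carries the peptides into the endoplasmic reticulum, Erap1 trims them, and tapasin with the chaperones Calr and Pdia3 holds the empty heavy chain and B2m ready for loading. Interferons raise the transcription of most of these genes in many cell types, and Nlrc5 drives the class I promoters. In the healthy nervous system class I levels are low in neurons and oligodendrocytes, and microglia and endothelium are the usual carriers.

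In these lesions the 10 class I genes summed to 1847 to 2665 CPM (read counts relative to the size of the library) in exercise and 2003 to 2529 CPM in control lesions at day 10, and to 2006 to 2522 CPM in exercise and 2007 to 2660 CPM in control lesions at day 5. None of the 10 passed edgeR's quasi-likelihood test between exercise and control at day 10, where 0.192% of all genes tested passed, or at day 5, where 0% did. Between day 10 and day 5, 1 of 10 passed in control lesions, Erap1, which fell, beside 12.3% of all genes, so that this share is near the background. Of 16 other interferon-stimulated genes 9 fell in exercise lesions by day 10, among them Isg15, Rsad2 and Ifit1, beside 10.1% of all genes that passed in either direction. That count was 3 without day 5 exercise replicate 12, 4 without day 10 exercise replicate 17 and 5 without day 10 exercise replicate 19. In control lesions all 16 were below 0 as well, with a median log2 difference of -0.82, and 1 passed. None of the 16 passed the test of whether the day effect differed between exercise and control, so their fall is not shown to be particular to exercise. In the exercise lesions 0 of the 10 class I genes passed, with a median log2 difference of -0.02.

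The genes lie at 4 places in the genome (GRCm38). On chromosome 17 the major histocompatibility complex holds 7 of them: Tapbp (33915899 to 33929288, forward strand), H2-K1 (33996017 to 34000333, reverse), Psmb9 (34181988 to 34187764, reverse), Tap1 (34187553 to 34197225, forward), Psmb8 (34197721 to 34201454, forward), Tap2 (34203527 to 34216321, forward) and H2-D1 (35262730 to 35267499, forward). B2m lies on chromosome 2 (122147686 to 122153083, forward), Nlrc5 on chromosome 8 (94472763 to 94527272, forward) and Erap1 on chromosome 13 (74639872 to 74691875, forward). Exons of Tap1 and Psmb9 overlap on opposite strands at their starts, and the counting used the strand of the read, per the file headers. Tap2, Psmb8 and Tapbp also have exons that overlap other genes on the opposite strand. Tapbp overlaps Zbtb22 on the same strand, which the strand of the read cannot separate. The effect of that overlap on the Tapbp counts was not tested. Of the stretches of 75 bases in H2-D1 transcripts, 5.4% also occur in another annotated gene, and for H2-K1 the share is 3.1%. The partners are mostly other class I genes, so a small part of the counts of both heavy chains could be lost to copies or gained through them. For B2m, Tap1, Tap2, Psmb8, Psmb9, Nlrc5 and Erap1 the share is 0, and for Tapbp it is 1.1%.

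Promoter windows from RefSeq (build GRCm38.p6) were at hand for 8 of the 10 members: H2-D1, H2-K1, B2m, Tap1, Tapbp, Psmb8, Psmb9 and Erap1. They are shown for both heavy chains, whose starts resemble each other, for B2m, their partner, for Tap1, which shares its start region with Psmb9, and for Erap1, the only member that passed a test. Each line runs 5′ to 3′, from 250 bases before the start site of transcription to 30 bases after it. Capitals mark matches, on either strand, to an interferon response element (GAAANNGAAA, or the short form GAANNGAAA), to a gamma-activated site (TTCNNNGAA), to a kappaB site (GGGATTCCC) and to a CCAAT box (CCAAT).
H2-K1 (chr17:34000304-34000583, reverse strand): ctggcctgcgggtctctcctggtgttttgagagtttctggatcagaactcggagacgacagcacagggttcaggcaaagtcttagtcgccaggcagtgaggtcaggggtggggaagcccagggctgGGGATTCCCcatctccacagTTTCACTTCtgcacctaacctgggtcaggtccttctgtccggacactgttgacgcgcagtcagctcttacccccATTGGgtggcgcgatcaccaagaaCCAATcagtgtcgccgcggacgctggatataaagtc
H2-D1 (chr17:35262844-35263123, forward strand): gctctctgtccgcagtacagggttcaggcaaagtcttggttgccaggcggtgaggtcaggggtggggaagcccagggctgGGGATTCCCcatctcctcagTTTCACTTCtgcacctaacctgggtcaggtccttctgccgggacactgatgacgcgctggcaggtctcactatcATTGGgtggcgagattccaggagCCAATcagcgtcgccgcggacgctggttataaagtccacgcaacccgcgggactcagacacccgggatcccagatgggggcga
B2m (chr2:122147437-122147716, forward strand): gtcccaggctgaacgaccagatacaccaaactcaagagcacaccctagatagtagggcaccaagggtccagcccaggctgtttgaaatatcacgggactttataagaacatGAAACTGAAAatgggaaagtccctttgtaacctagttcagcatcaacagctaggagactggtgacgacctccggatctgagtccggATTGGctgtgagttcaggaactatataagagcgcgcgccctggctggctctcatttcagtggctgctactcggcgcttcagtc
Tap1 (chr17:34187306-34187585, forward strand): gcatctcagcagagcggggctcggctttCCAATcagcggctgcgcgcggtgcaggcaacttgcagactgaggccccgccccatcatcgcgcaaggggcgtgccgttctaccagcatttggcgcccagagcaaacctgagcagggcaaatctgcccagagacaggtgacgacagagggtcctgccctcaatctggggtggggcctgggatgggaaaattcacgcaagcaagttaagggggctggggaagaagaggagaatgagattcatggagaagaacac
Erap1 (chr13:74639603-74639882, forward strand): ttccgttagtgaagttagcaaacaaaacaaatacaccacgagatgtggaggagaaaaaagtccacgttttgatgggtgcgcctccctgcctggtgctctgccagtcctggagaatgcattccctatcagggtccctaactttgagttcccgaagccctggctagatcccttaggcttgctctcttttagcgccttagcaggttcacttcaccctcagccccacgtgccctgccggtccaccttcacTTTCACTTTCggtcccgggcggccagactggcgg

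The H2-K1 and H2-D1 windows both hold the kappaB letters followed by the short interferon element, whose first base lies 20 bases after the first base of the kappaB match. Over the 29 bases that cover both matches, 28 are identical between these heavy chains. Each also carries a pair of CCAAT boxes nearer the start site. The kappaB letters occur in 0.329% of the 32851 promoter windows of this length in the table, the short interferon element in 7.06% and a CCAAT box in 36.1%. The kappaB search allowed only that exact spelling, so its share is not comparable with those of motifs that are shorter or have open positions. B2m has the full interferon element GAAACTGAAA 139 bases before its start site, and Erap1 has it on the reverse strand, beginning 4 bases before its start site. The full element is found in 3.28% of windows, and 10 of the 12 interferon-stimulated genes with a window hold it. Psmb8 has a match to the gamma-activated site 97 bases before its start, a motif held by 7.83% of windows. The start sites of Tap1 and Psmb9 are 226 bases apart and point away from each other, and only a CCAAT box was matched between them. A match is a description of letters, and a window without one says only that these letters are not there.

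Total counts per library were 8125981 to 13930582, and at day 5 the exercise libraries, at 8125981 to 10930385, all held fewer counts than the control libraries, at 11204380 to 13930582. The mitochondrial ribosomal RNA mt-Rnr2 took 10.9% to 12.9% of counts in exercise libraries at day 5, against 8.05% to 10.3% in control libraries of that day. The members were well counted: B2m had at least 5874 counts in a library, and Psmb9, the least counted, had 72 to 266. Levels are CPM of the library size after TMM scaling. Where genes are compared with each other, CPM was divided by exon length in kilobases. Markers of the tissue fitted the label: oligodendrocyte markers summed to at least 10690 CPM and homeostatic microglia markers to at least 6542 CPM in every library.

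B2m stood highest per kilobase of exon in every library, with a mean of 964 CPM per kb over the 16 libraries. The heavy chains followed at 208 CPM per kb for H2-D1 and 201 for H2-K1, and these did not separate, since H2-D1 was the higher in 10 of 16 libraries. Tapbp averaged 78.3 CPM per kb and lay below H2-K1 in all 16 libraries. Far below came Psmb8 (14.6), Erap1 (8.56), Tap1 (7.31), Tap2 (4.02), Psmb9 (3.93) and Nlrc5 (3.84), all in CPM per kb. Psmb8 was above Erap1 in 15 of 16 libraries and Tap1 above Tap2 in 16 of 16. Erap1 was above Tap1 in 12 libraries, Tap2 above Psmb9 in 10 and Psmb9 above Nlrc5 in 12, so these neighbours overlap. RNA of B2m, the heavy chains and tapasin thus lay far above that of the transporter, the immunoproteasome subunits and the transactivator. Protein was not measured. The order among the low genes rests on annotated exon length, 3659 bases for Psmb9 and 7646 for Nlrc5. Before that division Psmb9 was the lower, with a mean of 14.1 against 28.0 CPM in exercise lesions at day 10.

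**Figure D1:**
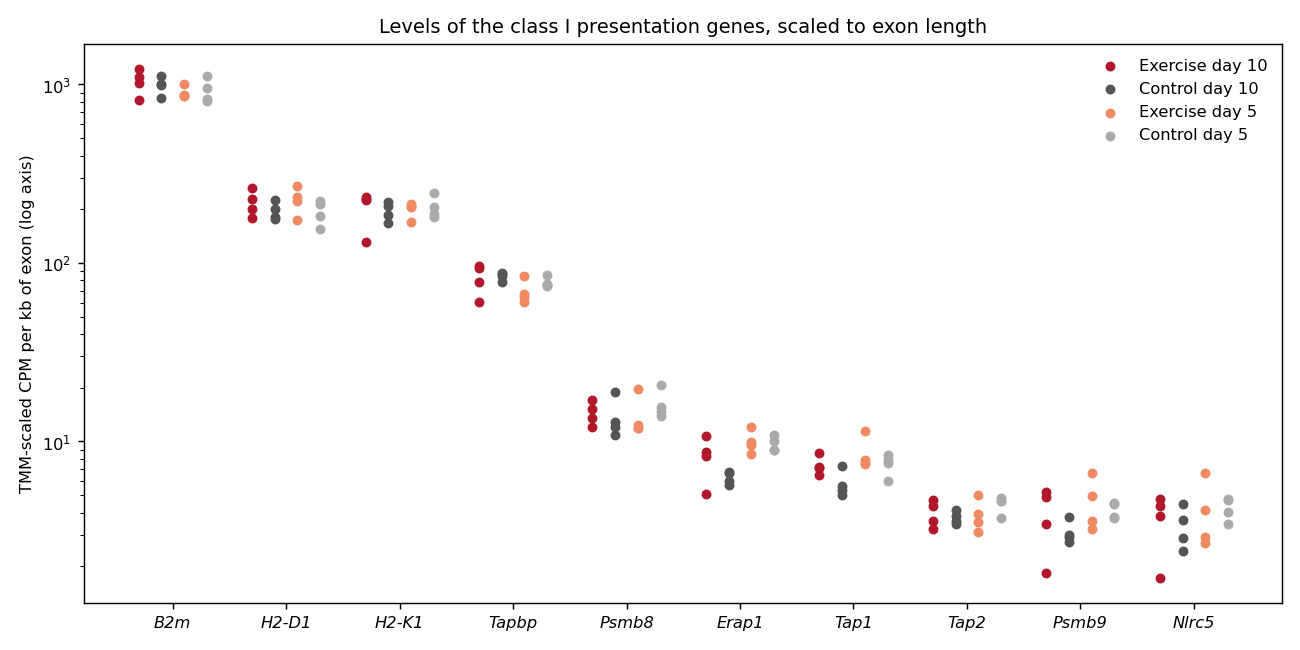
Level of each gene in CPM per kb of exon on a log axis, ordered by the mean over 16 libraries, with 1 point per library and 4 points per group. B2m averages 964 CPM per kb and Nlrc5 3.84, and the groups of a gene lie close together beside this range.

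The H2-D1 to H2-K1 ratio of these per-kb levels lay between 0.822 and 1.36 in the 16 libraries, with group means of 1.09 ± 0.20 in exercise and 1.01 ± 0.05 in control lesions at day 10, and 1.13 ± 0.13 in exercise and 0.942 ± 0.10 in control lesions at day 5 (SD, n = 4 each). B2m exceeded the sum of both heavy chains 1.83 to 2.85 times on this per-kb scale. That excess rests on exon length, 860 bases for B2m against 2579 for H2-D1 and 2608 for H2-K1. Before that division B2m was below both heavy chains together even where the ratio was highest, in exercise replicate 17 of day 10. There B2m had 1045 CPM, H2-D1 515 CPM and H2-K1 590 CPM. The immunoproteasome subunit Psmb8 reached 0.428 to 1.02 of the level of Psmb5, the constitutive subunit it replaces. This ratio rests on the annotated exon length, 2736 bases for Psmb8. Before that division Psmb8 was the higher even where the ratio was lowest, in exercise replicate 13 of day 10 (33.1 against 24.6 CPM). Psmb9 reached 0.127 to 0.38 of Psmb6, and Psmb10 0.0722 to 0.226 of Psmb7. Psmb9 and Psmb10 were below their constitutive counterparts in all 16 libraries, while Psmb8 came level with its own in the highest of them.

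The heavy chains present the peptide. H2-K1 had 342, 590, 596 and 613 CPM in exercise lesions at day 10, against 484, 435, 542 and 570 CPM in control lesions. In day 5 lesions H2-K1 had 443, 536, 543 and 558 CPM in exercise lesions and 534, 473, 490 and 647 CPM in control lesions. The groups overlapped at both days, and 1 exercise library of day 10, replicate 13, lay well below the other three. H2-D1, the second classical heavy chain of this strain, had 459, 515, 586 and 677 CPM in exercise lesions at day 10, against 465, 456, 515 and 580 CPM in control lesions. At day 5 H2-D1 had 450, 692, 604 and 576 CPM in exercise lesions, against 554, 470, 398 and 572 CPM in control lesions. Its groups overlapped as well, with the lowest library in control and the highest in exercise at day 5. The exercise minus control log2 difference was 0.08 (95% interval -0.26 to 0.41) for H2-K1 and 0.15 (-0.16 to 0.46) for H2-D1 at day 10. At day 5 it was -0.04 (-0.38 to 0.29) for H2-K1 and 0.22 (-0.09 to 0.53) for H2-D1.

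The light chain B2m is needed for the heavy chain to reach the surface. It had 700, 1045, 875 and 943 CPM in exercise lesions at day 10, against 870, 722, 859 and 963 CPM in control lesions. In day 5 lesions it had 745, 744, 747 and 860 CPM with exercise and 824, 716, 695 and 954 CPM in controls. B2m varied least of the 10, with its highest library 1.5 times its lowest. Tapbp, tapasin, bridges the transporter and the empty class I molecule. Its level was 200, 309, 316 and 257 CPM in exercise lesions at day 10, against 278, 258, 290 and 287 CPM in control lesions. At day 5 Tapbp had 199, 213, 220 and 278 CPM in exercise lesions, against 245, 251, 248 and 282 CPM in control lesions. At day 5, 3 of 4 exercise libraries lay below every control library, and the log2 difference of -0.17 (-0.45 to 0.10) did not pass (edgeR adjusted p = 0.685).

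The TAP subunits form the pump for peptides. Tap1 had 47.2, 35.5, 39 and 39.4 CPM in exercise lesions at day 10, against 39.9, 30.7, 29.2 and 27.4 CPM in control lesions. At day 5 it had 40.7, 41.6, 43.3 and 62.8 CPM in exercise lesions and 41.5, 46.1, 32.8 and 43.0 CPM in control lesions. At day 10, 3 of 4 control libraries lay below every exercise library, and the fourth lay among them. Its exercise minus control log2 difference at day 10 was 0.34 (0.00 to 0.68), with an unadjusted p of 0.0494 and an edgeR adjusted p of 0.388. Tap2, its partner, had 12.3, 17.8, 16.5 and 13.6 CPM in exercise lesions at day 10, against 13.5, 14.5, 15.5 and 13 CPM in control lesions. At day 5 Tap2 had 13.5, 11.8, 14.8 and 19.1 CPM in exercise lesions, against 14.1, 18.2, 17.6 and 17.4 CPM in control lesions. The groups of Tap2 overlapped at both days, with a log2 difference of 0.09 (-0.27 to 0.44) at day 10 and -0.18 (-0.54 to 0.17) at day 5.

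Psmb8 and Psmb9 are catalytic subunits of the immunoproteasome. Psmb8 had 33.1, 41.5, 46.6 and 37.1 CPM in exercise lesions at day 10, against 35, 29.9, 51.8 and 32.8 CPM in control lesions. At day 5 it had 32.7, 32.6, 33.8 and 53.5 CPM in exercise lesions, against 42.9, 38.1, 40.1 and 57.0 CPM in control lesions. In day 5 exercise lesions 3 libraries lay together below all 4 controls, and replicate 12 lay near the highest control. Psmb9 had 6.71, 19, 12.7 and 18 CPM in exercise lesions at day 10, against 10.7, 10.0, 13.9 and 11 CPM in control lesions. At day 5 Psmb9 had 13.1, 11.8, 18 and 24.5 CPM in exercise lesions and 13.6, 16.3, 13.9 and 16.6 CPM in control lesions. Exercise libraries of Psmb9 spanned the control libraries on both sides at each day. Its intervals were wide, -0.26 to 0.87 on the log2 scale at day 10 and -0.40 to 0.72 at day 5.

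Nlrc5, the transactivator of the class I promoters, was the most variable member, with its highest library 3.83 times its lowest. It had 13.2, 29.2, 36.5 and 33.2 CPM in exercise lesions at day 10, against 34.1, 18.7, 27.9 and 21.9 CPM in control lesions. Nlrc5 at day 5 had 20.7, 22.3, 31.4 and 50.6 CPM in exercise lesions and 26.3, 35.8, 36.6 and 30.7 CPM in control lesions. The lowest and the highest of the 16 libraries for Nlrc5 were both exercise libraries, replicate 13 of day 10 and replicate 12 of day 5.

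Erap1 trims peptides inside the endoplasmic reticulum. It had 33.4, 43.1, 20.5 and 35 CPM in exercise lesions at day 10, against 26.9, 27.1, 24 and 23 CPM in control lesions. Erap1 at day 5 had 48.5, 34.1, 39.8 and 38.5 CPM in exercise lesions and 43.4, 36.1, 36.2 and 40.3 CPM in control lesions. All 4 control libraries of day 10 lay below all 4 control libraries of day 5, while the exercise libraries of the days overlapped. The share of all genes that separate in this way was not counted. At day 10, 3 of 4 exercise libraries lay above every control library and replicate 18 lay below all of them. The exercise minus control log2 difference at day 10 was 0.39 (0.02 to 0.75), with an unadjusted p of 0.039 and an edgeR adjusted p of 0.362. It was 0.23 without exercise replicate 17 and 0.55 without exercise replicate 18. This difference and the fall in control lesions share the control libraries of day 10 and are not separate evidence.

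**Figure D2:**
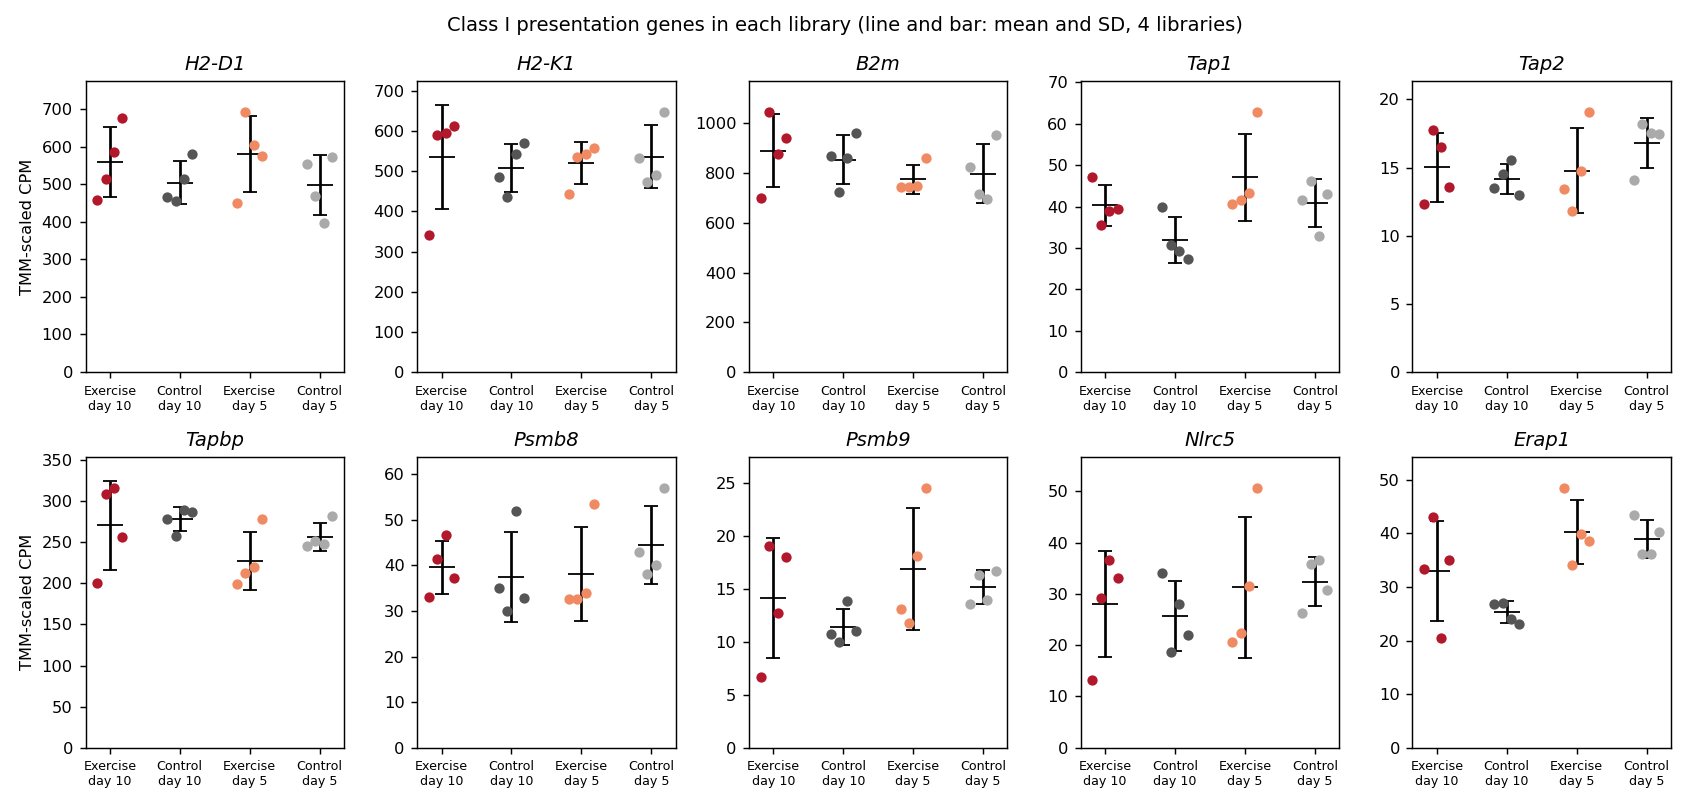
TMM-scaled CPM of each gene in every library, by group, with the mean and SD of 4 libraries as line and bar. Exercise and control overlap for every gene at both days, and so do the days within exercise and within control, except Erap1 in control lesions, where day 10 libraries (23 to 27.1 CPM) lie below day 5 libraries (36.1 to 43.4 CPM). In that comparison 12.3% of all genes tested passed, and the share of all genes that separate fully was not counted.

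The wheel comparison asked whether running changed the lesion's transcriptome at a given day. At day 10, 0 of the 10 members passed edgeR's test at an adjusted p of 0.05, while 29 of 15096 genes did (0.192%). For 9 of the 10 the exercise minus control log2 difference was above 0, with a median of 0.11, against 0.01 over all genes tested. Tapbp, at -0.04, was the exception. In this comparison 10 of 10 homeostatic microglia markers were also above 0 and 8 of 8 oligodendrocyte markers below 0, none of them called. Of the endothelial markers 8 of 10 were below 0, with 1 called lower. Macrophage markers were split, with 4 of 8 below 0 and 1 called lower. Each of these counts of 1 fell to 0 in some fits that left out a single library. Astrocyte markers were below 0 in 6 of 7, and no marker of the remaining lists was called. The part of such shifts in the members' values was not tested. Without exercise replicate 13, the library lowest for H2-K1, Psmb9 and Nlrc5, H2-K1 came to 0.23 and Nlrc5 to 0.35, and neither passed (edgeR adjusted p = 0.428 and 0.589). At day 5, 0 of 10 members passed, as did 0 of all genes tested (0%), although 1513 genes had an unadjusted p under 0.05, none of them a member, and DESeq2 called 75 genes, none of them a member. The log2 differences at day 5 ran between -0.22 for Psmb8 and 0.22 for H2-D1, with 4 above 0 and 6 below. In the authors' deposited tables of the same comparisons, adjusted p-values of the members ran between 0.417 and 0.997 at day 10, where exercise replicate 17 is not in the table, and between 0.523 and 0.953 at day 5. The authors' day 10 log2 differences were below 0 for B2m (-0.04), Tap2 (-0.01) and Tapbp (-0.12) and above 0 for the other members. Over all genes, the authors' deposited tables hold 179 of 15674 adjusted p-values under 0.05 at day 10 and 271 of 11064 at day 5.

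Between the days, 1 of 10 members passed in control lesions, where 12.3% of all genes tested did (1858 of 15096). That was Erap1, which fell by 0.63 on the log2 scale (SE 0.17, 95% interval -0.99 to -0.26, edgeR adjusted p = 0.0226), to 0.647 of its day 5 level. Its call was lost without day 5 control replicate 1 (edgeR adjusted p = 0.0681) or 6 (0.0513) and without day 10 control replicate 4 (0.0536) or 5 (0.0643). With replicate numbers as a block, which are not known to pair these libraries, the edgeR adjusted p was 0.167. That fit kept only the libraries numbered 1, 2 or 5. In bulk tissue a smaller share of cells expressing a gene and less of its RNA per cell cannot be told apart. Beside this fall, summed markers of monocyte-derived macrophages were 763 to 1083 CPM in control lesions at day 10, against 1242 to 3224 CPM at day 5, with 4 of 8 lower and none higher. That count was 2 without day 5 control replicate 1 or 2 or day 10 control replicate 2 or 3. Oligodendrocyte markers summed to 23800 to 26760 CPM at day 10, against 10690 to 14610 CPM at day 5, with 6 of 8 higher. Astrocyte markers summed to 6329 to 7673 CPM at day 10, against 3165 to 5848 CPM at day 5, with 4 of 7 higher. Of the microglia markers 4 of 10 were higher, yet their sum did not rise, with 6652 to 8963 CPM at day 10 against 7749 to 10450 CPM at day 5. Of the neuron markers 3 of 8 were lower. The part of these shifts in the Erap1 result was not tested. Tap1 had a log2 difference of -0.36 (-0.70 to -0.02) that did not pass (edgeR adjusted p = 0.156). The other 8 members ran between -0.41 for Psmb9 and 0.12 for Tapbp, and the median of all 10 was -0.25, against 0.01 over all genes tested.

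In exercise lesions 0 of 10 members passed between day 10 and day 5, where 10.1% of all genes tested did, and no member had an unadjusted p under 0.05. The log2 differences ran between -0.29 for Erap1 and 0.25 for Tapbp, with 5 above 0 and 5 below and a median of -0.02. DESeq2 and limma-voom likewise called none of the 10. For Erap1 the difference of the day effects, exercise minus control, was 0.34 (-0.17 to 0.85, edgeR adjusted p = 0.677), so its fall in control lesions is not shown to differ from the exercise value of -0.29. No member passed the test of that difference, nor did any of the 15096 genes (0%), of which 1376 had an unadjusted p under 0.05 and 9 were called by DESeq2. None of the 10 members was among those 1376 or those 9.

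**Figure D3:**
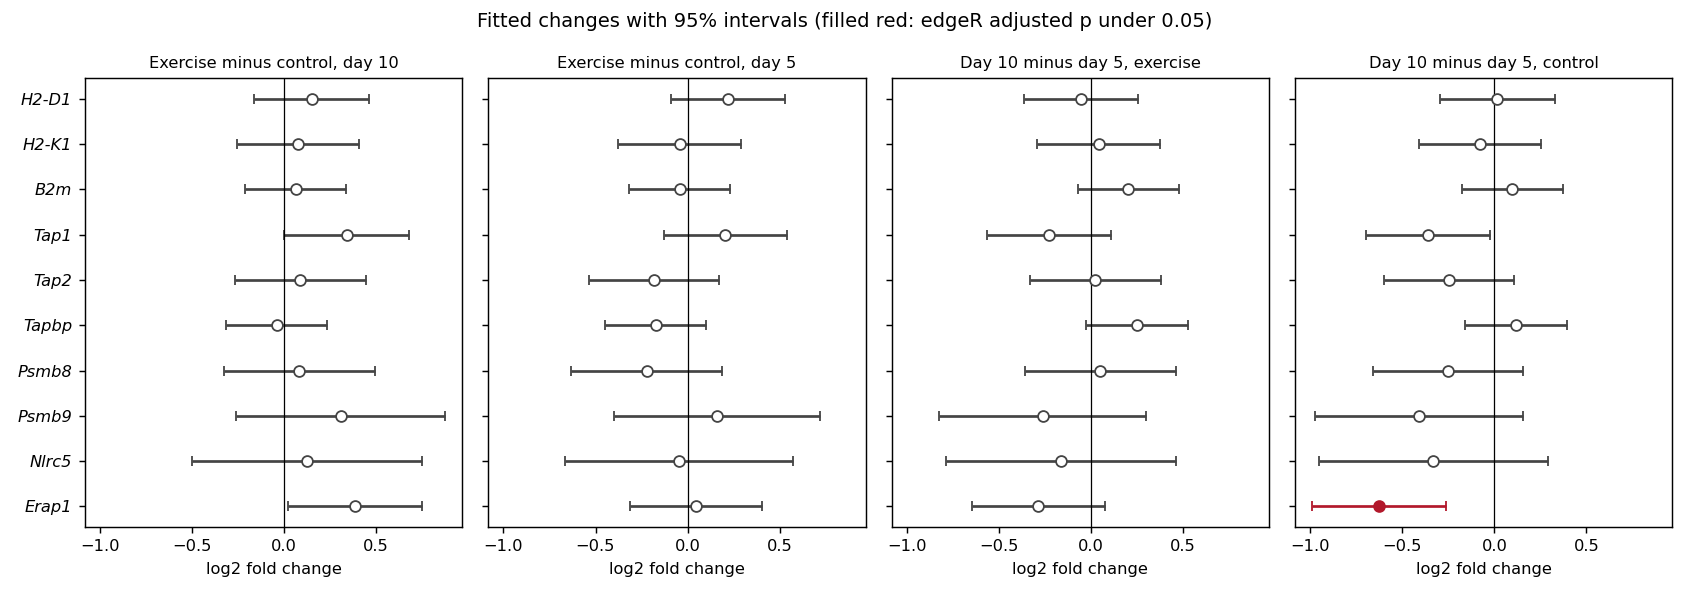
Fitted log2 fold change of each gene in 4 comparisons, with 95% intervals as bars. Only Erap1 between the days in control lesions passed, the filled red point at -0.63. The other intervals that leave out 0 are those of Tap1 in control lesions (-0.70 to -0.02) and of Tap1 and Erap1 at day 10 (lower ends at 0.00 and 0.02), none of which passed.

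Interferon-stimulated genes differed between the days in part of the list. Of 16 interferon-stimulated genes, 9 fell in exercise lesions by day 10, with log2 differences of -2.61 for Rsad2, -2.39 for Isg15, -2.25 for Ifit1, -2.19 for Ifit3, -2.11 for Rtp4, -1.97 for Oasl2, -1.06 for Gbp3, -1.02 for Usp18 and -0.99 for Irgm1. Their products include antiviral proteins (Rsad2, Ifit1, Ifit3), a ubiquitin-like modifier (Isg15) and the protease that removes it (Usp18). The median over the list was -1.20, and 10.1% of all genes tested passed in exercise lesions in either direction. In control lesions 1 of 16 passed, beside 12.3% of all genes tested. That was Irgm1, a GTPase, which fell by 0.72, while all 16 were below 0, with a median of -0.82. For the difference of the day effects, exercise minus control, 15 of the 16 were below 0 and 2 had an unadjusted p under 0.05. There 0 of the 16 passed edgeR's test, as did 0 of all genes tested (0%). The count in control lesions was 4 without day 10 control replicate 2 and 2 without day 5 control replicate 1 or day 5 exercise replicate 2 or 12. It was 0 without day 10 exercise replicate 19, day 10 control replicate 3 or 5, day 5 exercise replicate 1 or 7, or day 5 control replicate 2, 5 or 6. Beside the fall in exercise lesions, 3 of 8 macrophage markers (5 without day 5 exercise replicate 1), 4 of 8 neuron markers (7 without day 10 exercise replicate 13) and 3 of 10 endothelial markers were lower, and 7 of 10 microglia markers were higher. Their part in it was not tested. Between the wheel groups 0 of the 16 genes passed edgeR's test at day 10, with 2 at an unadjusted p under 0.05, and 0 passed at day 5, with 0 at an unadjusted p under 0.05; DESeq2 called 0 at both days.

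Isg15 shows the spread behind these counts. It had 1.58, 1.27, 4.52 and 3.45 CPM in exercise lesions at day 10, against 13.4, 4.43, 11.7 and 27.2 CPM in exercise lesions at day 5. The lowest day 5 library lay just under the highest of day 10. In control lesions it had 11.5, 1.18, 7.91 and 2.37 CPM at day 10, against 5.17, 11.7, 16.8 and 12.4 CPM at day 5, and the days overlapped widely. Over the whole list the summed level was 168 to 267 CPM in exercise and 166 to 524 CPM in control lesions at day 10. At day 5 it was 265 to 1020 CPM in exercise and 378 to 787 CPM in control lesions.

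Among 22 tested factors and signalling genes, 6 passed between the days in exercise lesions, 4 higher and 2 lower, beside 10.1% of all genes tested. In control lesions 2 of 22 passed, both higher, beside 12.3% of all genes, so that share is near the background. Ifngr1 is a chain of the receptor for interferon gamma. It rose at day 10 in exercise lesions by 0.81 (edgeR adjusted p = 5.23e-05) and in control lesions by 0.72 (9.1e-05). Its counts were tight: 291, 299, 295 and 268 CPM in exercise and 274, 266, 285 and 314 CPM in control lesions at day 10, against 159, 172, 168 and 158 CPM in exercise and 168, 159, 189 and 176 CPM in control lesions at day 5. All 8 libraries of day 10 lay above all 8 of day 5, and the share of all genes that separate so fully was not counted. Nfkb1, a subunit that binds kappaB sites, rose by 0.58 in exercise and by 0.38 in control lesions. In exercise lesions Irf8, a factor of microglia and other myeloid cells, rose by 0.84 and Irf2 by 0.49, while Irf7 (-2.28) and Stat2 (-0.86) fell, both of which act in the type I interferon response. Homeostatic microglia markers moved beside these factors, with 7 of 10 higher in exercise and 4 of 10 higher in control lesions at day 10. In control lesions their summed level did not rise, with a mean of 7807 CPM at day 10 against 8967 CPM at day 5. The part of these markers in these results was not tested. Without day 5 exercise replicate 12, 3 in place of 6 genes of this list passed in exercise lesions, and without day 5 control replicate 1 or day 10 control replicate 4, 1 in place of 2 passed in control lesions. Irf1, a factor that drives class I genes downstream of interferon gamma, did not pass in either group.

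Of the 16 other genes of peptide supply and loading 3 passed between the days in control lesions, all lower at day 10, beside 12.3% of all genes tested. These were the lectin chaperones Calr and Canx and the disulfide isomerase Pdia3. Their log2 differences were -1.01 for Pdia3, -0.95 for Calr and -0.43 for Canx. Pdia3 had 218, 223, 239 and 209 CPM in control lesions at day 10, and its lowest control library at day 5 was at 407 CPM. In exercise lesions these 3 did not pass, with log2 differences of -0.33, -0.44 and 0.05. Day 10 exercise replicate 17 was high for all 3 of them (Pdia3 444, Calr 447 and Canx 786 CPM), against 198 to 263, 198 to 261 and 475 to 528 CPM in the other exercise libraries of that day. The difference of the day effects did not pass for Pdia3 (0.68, edgeR adjusted p = 0.504). In exercise lesions Psmb6, the constitutive counterpart of Psmb9, fell by 0.50. It was the only gene of the 16 to pass, beside 10.1% of all genes tested. Without exercise replicate 17, 4 passed in exercise and 5 in control lesions. That call in exercise lesions was lost (0 passed) without day 10 exercise replicate 13, 18 or 19, without any of day 5 exercise replicates 2, 7 and 12, without day 10 control replicate 3 or 5, and without any of the 4 day 5 control replicates.

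Of 17 other class I and class I-like heavy chains 10 were tested, and 0 passed edgeR's test in any of the 5 comparisons. H2-T22 had 36.5 to 50.3 CPM in exercise and 35.9 to 57.0 CPM in control lesions at day 10, against 47.3 to 74.8 CPM in exercise and 51.1 to 67.6 CPM in control lesions at day 5. H2-T23, the Qa-1 molecule that inhibitory receptors of natural killer cells read, had medians of 24.7 CPM in exercise and 20.2 CPM in control lesions at day 10, against 24.9 and 23.8 CPM in exercise and control lesions at day 5. Mr1, which presents vitamin B metabolites, had medians of 37.6 CPM in exercise and 35.3 CPM in control lesions at day 10, against 51.7 and 46.4 CPM in exercise and control lesions at day 5. Leaving out day 5 control replicate 5 or 6, or day 10 exercise replicate 17, brought 1 gene of this list past the threshold between the days in control lesions.

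**Figure D4:**
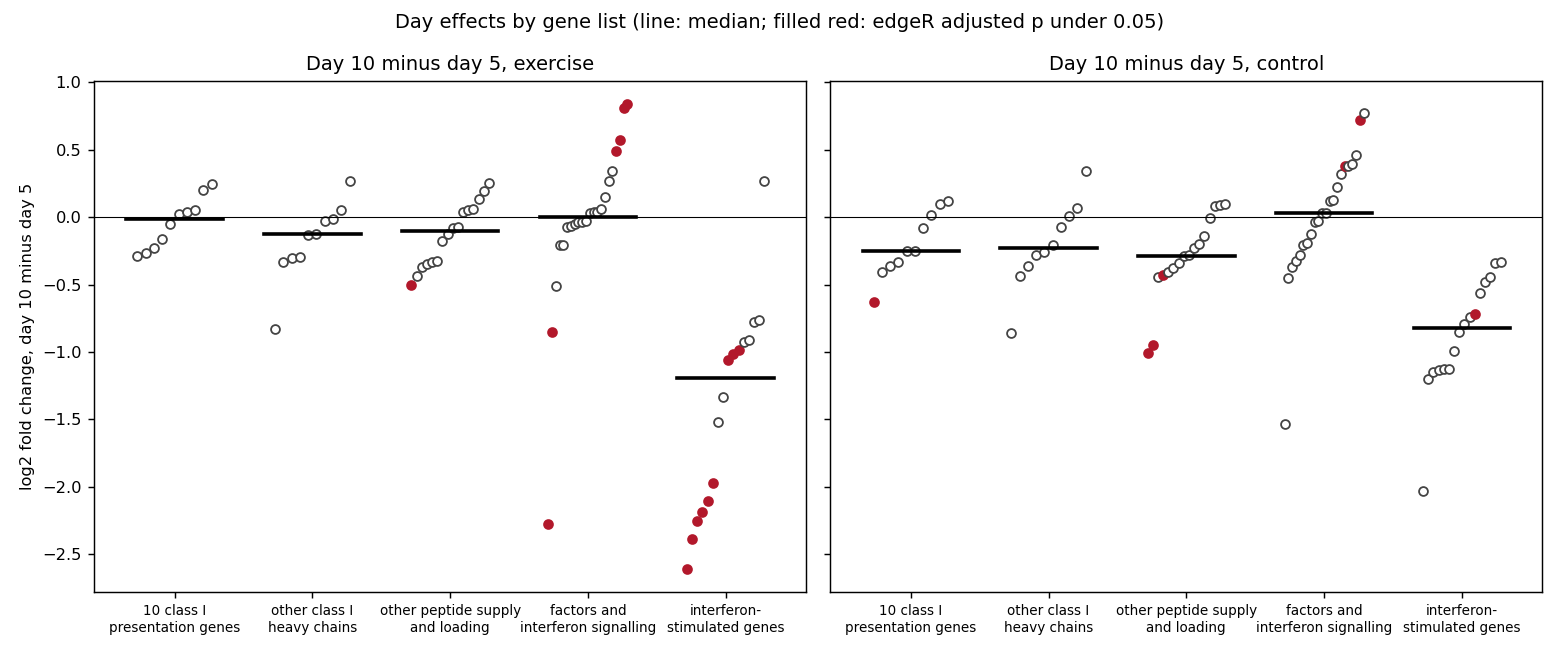
Log2 fold change between day 10 and day 5 of each tested gene in 5 lists, for exercise and control lesions, with the median as a line and called genes filled red. The class I genes have medians of -0.02 in exercise and -0.25 in control lesions, and the interferon-stimulated genes -1.20 and -0.82.

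The cells that read class I left little RNA. The 13 T and natural killer cell markers summed to 1.37 to 7.20 CPM in exercise and 2.73 to 11.1 CPM in control lesions at day 10, and to 2.35 to 5.50 CPM in exercise and 2.08 to 4.58 CPM in control lesions at day 5. Cd3e, part of the T cell receptor complex, was at 0 in all day 5 libraries and reached at most 0.203 CPM at day 10. Cd8a reached at most 0.559 CPM, where 3 counts correspond to 0.218 to 0.38 CPM in these libraries. Only 3 of the 13 markers and 2 of 6 class I receptors were counted often enough to test. Pirb, an inhibitory receptor of myeloid cells that binds class I, had medians of 7.28 CPM in exercise and 9.21 CPM in control lesions at day 10, against 15.1 and 11.6 CPM in exercise and control lesions at day 5. Its groups overlapped, and neither tested receptor passed edgeR's test in any comparison. DESeq2 called 1 receptor between the days in exercise lesions, and so did edgeR without day 5 exercise replicate 1, day 5 control replicate 1 or 6, or day 10 exercise replicate 18.

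Libraries differed in how many members lay high or low. The mean of the 10 centred log2 levels had an SD of 0.19 over the 16 libraries. Exercise replicate 12 of day 5 was above the 16-library median for 10 of 10 members and was the highest library for 4, and it also had the highest summed interferon-stimulated level (1020 CPM). Control replicate 6 of day 5 was above the median for 10 of 10 as well, with the next highest interferon-stimulated level (787 CPM). Exercise replicate 13 and control replicate 3 of day 10 were above the median for 1 of 10 each, with interferon-stimulated levels of 170 and 166 CPM. Other libraries ran the opposite way. Exercise replicate 17 of day 10 was above the median for 7 of 10 members at an interferon-stimulated level of 168 CPM. Exercise replicate 1 of day 5 was above it for 2 of 10 at 589 CPM, and control replicate 2 of day 10 for 3 of 10 at 524 CPM. On the centred log2 scale libraries spanned -0.38 to 0.38 for the class I mean and -1.12 to 1.49 for the interferon-stimulated mean. These points share depth and scaling, and no p-value is attached to their relation.

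**Figure D5:**
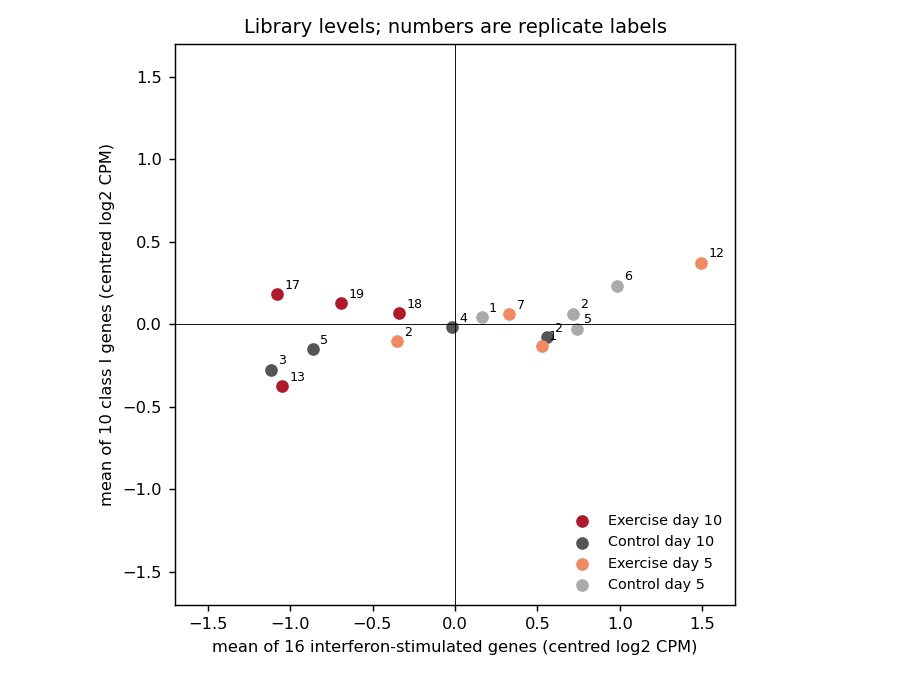
Mean centred log2 CPM of the 10 class I genes (vertical) against that of 16 interferon-stimulated genes (horizontal), with 1 point per library, coloured by group and numbered by replicate label. The class I mean spans -0.38 to 0.38, and the interferon-stimulated mean spans -1.12 to 1.49.

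The genes with the course most like the mean of the members over the 16 libraries were Sumf2, Gm10524, Cdc16, Miga1, Wdr7, Gm26636, Ythdf2, Gm26716, Fam120a and Efr3a. Likeness was the root mean square difference of centred log2 CPM, which ran between 0.118 for Sumf2 and 0.139 for Efr3a. The members' mean is itself nearly flat, and these genes are too, with an SD of 0.11 to 0.24 over the libraries.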

How the data were processed

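RNA was amplified, selected for poly(A) and sequenced as strand-specific single reads of 75 nt, per the labels' protocols. The submitters' processing notes name FastQC 0.11.4, TopHat2 2.0.10 with Bowtie 1.1.2, and the GRCm38 build. The authors deposited raw counts per Ensembl gene from featureCounts 1.5.0-p1, with its forward-stranded setting, per the file headers. Their comparison tables hold log2 fold changes and adjusted p-values, deposited by the authors, and the processing notes name DESeq2 1.12.4. Amplification of small RNA amounts can widen the spread between libraries, and counting error is only part of it.

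Here the raw counts of all 16 libraries were fitted with 1 mean per group by edgeR 4.0.16 in R 4.3.3 (TMM scaling, filterByExpr with minimum counts of 10 and 15 in total, robust quasi-likelihood F test, 12 residual degrees of freedom before moderation). P-values were adjusted by Benjamini-Hochberg over the 15096 genes tested, and an adjusted p under 0.05 was called. Symbols came from GENCODE and matched 45143 of 46078 genes. Promoter sequences came from RefSeq tables. Alternatives were RLE size factors, DESeq2 1.42.0, limma-voom 3.58.1, no filter on low counts, a minimum count of 30, the 2 groups compared alone, a replicate block, and each library left out in turn. The block fit kept only libraries with replicate labels 1, 2 or 5, which left out every exercise library of day 10. The script was tested on simulated data. No pair of libraries of the same group agreed within sampling noise.

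The members, the gene lists and the tests were chosen with earlier results of these data known. All 10 members are named with every library's value, and of the pathway lists every gene called in any comparison, at most 12 a list. Marker lists are given as summed levels and counts. Other genes named were chosen after their values were seen. The authors' normalized and variance-stabilised tables and their second raw table were not used.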

Additional observations from a re-analysis of the deposited data

Results flagged for a closer look

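In 5 of the 40 sets of 4 libraries (10 genes in 4 groups) 1 library lay apart by Dixon's test on log2 CPM at the 95% level, which sets its gap to the nearest library against the range of the group. Chance gives such a mark in about 1 in 20 sets. Exercise replicate 12 of day 5 stood high for 3 genes: B2m at 860 CPM, against 744 to 747 CPM in the other libraries of its group, Tap1 at 62.8 CPM (others 40.7 to 43.3) and Psmb8 at 53.5 CPM (others 32.6 to 33.8). Exercise replicate 13 of day 10 stood low for H2-K1 at 342 CPM (others 590 to 613). Control replicate 1 of day 5 stood low for Tap2 at 14.1 CPM (others 17.4 to 18.2).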

How the results depend on the processing

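The 4 member counts of 0 stayed 0 under every alternative run, and the count of 1 between the days in control lesions fell to 0 with replicate numbers as a block and ran between 0 and 1 when single libraries were left out. Same-numbered libraries did not deviate together over all genes (correlations -0.03 to 0.07). The labels do not say that the numbers pair the libraries, and this check cannot decide it. No paired analysis was possible for the other comparisons because their groups share fewer than 2 numbers. The block was fitted only on the libraries numbered 1, 2 or 5, so its values also rest on fewer libraries per group. The effect of the block and that of fewer libraries cannot be told apart. In that fit H2-K1, not called, turned sign to 0.066 between the days in control lesions. For exercise against control at day 5, H2-K1 turned to 0.003, Tap1 to -0.095 and Psmb9 to -0.236, none of them called. The same fit moved Nlrc5 at day 5 to -0.609, in place of -0.047. It moved B2m between the days in control lesions to 0.349, in place of 0.098. No member turned sign under RLE size factors, DESeq2, limma-voom, either other filter or the 2 groups alone. With single libraries left out, 44 of 800 log2 values, all uncalled, turned sign. The ranges at day 10, exercise against control, were -0.026 to 0.148 for B2m, -0.004 to 0.228 for H2-K1, -0.04 to 0.349 for Nlrc5, -0.017 to 0.28 for Psmb8, -0.003 to 0.161 for Tap2 and -0.135 to 0.068 for Tapbp. At day 5 they were -0.106 to 0.06 for B2m, -0.058 to 0.116 for Erap1, -0.098 to 0.065 for H2-K1, -0.383 to 0.109 for Nlrc5 and -0.078 to 0.293 for Psmb9. Between the days in exercise lesions they were -0.161 to 0.041 for H2-D1, -0.035 to 0.198 for H2-K1, -0.323 to 0.175 for Nlrc5, -0.042 to 0.26 for Psmb8 and -0.074 to 0.172 for Tap2. In control lesions they were -0.076 to 0.091 for H2-D1 and -0.138 to 0.029 for H2-K1, and for the difference of the day effects -0.181 to 0.025 for H2-D1 and -0.037 to 0.384 for Psmb9. Counts over all genes moved more: 599 in place of 1858 with the block on those fewer libraries. The count of 1520 became 863 with the 2 groups alone and 992 without exercise replicate 7 of day 5. For exercise against control at day 10, where 29 genes were called, DESeq2 called 218 and the 2 groups alone gave 0, and single libraries left out gave 0 to 136. DESeq2 called 75 at day 5 and 9 for the difference of the day effects, in place of 0. The cause was not tested.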
